A study of Oryza sativa with 8 samples.

Results

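The leaf response to drought was compared between wild-type rice (WT) and a line that overexpresses OsGRAS23 (the OE line), by asking of each probe set how far its drought change in the OE line lay from that in WT. The comparison used 8 of the 8 arrays in the series, and all 57194 probe sets left once array controls were removed. The value reported as the difference between the lines is the drought change in the OE line minus the drought change in WT on the log2 scale, so that a positive value stands for a smaller fall or a larger rise in the OE line. The 4 groups were WT normal, WT drought, OE normal and OE drought, with 2 arrays each, all from leaves of 21-day-old seedlings of the japonica cultivar Zhonghua11 grown in culture solution under long days. Normal leaves were taken untreated. Drought leaves were taken from seedlings laid on filter paper until WT leaves rolled, so the end point was set by WT plants for both lines. Each array held a pool of 20 seedlings and was labelled a biological replicate. No untreated seedlings were sampled at the later time, so drought cannot be told apart from handling or from the time of sampling. The promoter of the transgene and the number of independent transformants behind the OE line are not given in the sources used here.

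GRAS proteins are plant transcriptional regulators, a family that includes the DELLA repressors of gibberellin signalling and the SHORT-ROOT and SCARECROW factors of root patterning. When a rice leaf loses water, abscisic acid (ABA) releases SnRK2 kinases from type 2C phosphatases and induces dehydrins and other protective proteins, while genes of growth, cell division and nutrient uptake are turned down. Jasmonate, an oxylipin hormone made through lipoxygenase, allene oxide synthase and allene oxide cyclase, acts through the COI1 receptor by removing JAZ (TIFY) repressors, whose own genes are induced by the hormone.

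Some arrays stood apart before any comparison of genes. Arrays correlated across probe sets at 0.947 to 0.991, and the lowest value lay between the second WT normal and the second WT drought array. The 9 hybridization controls, bacterial and phage transcripts added in fixed amounts, averaged 10.20 and 9.30 in WT normal, 10.31 and 10.37 in OE normal, 10.78 and 11.53 in WT drought, and 10.90 and 10.97 in OE drought on the log2 scale. The second WT normal array was thus the lowest and the second WT drought array the highest. Of 5 leaf markers found by name (CAB2R, PPDKB, RBCS, RBCS1 and rca), 4 had a log2 value above 5 on all arrays, with means of 10.48 to 10.95. The 10 root markers found by name averaged 5.33 and 6.29 in WT normal, 5.07 and 5.84 in OE normal, 4.72 and 4.45 in WT drought, and 4.86 and 4.82 in OE drought. Among them Lsi1, a silicon channel of roots, ranged from 9.20 to 11.89, although all samples were labelled leaves. No probe set could be tied to GRAS23 by name, so the overexpressed gene was not analysed here.

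No probe set differed between the lines in its drought change at the call used here, an adjusted p under 0.05 in limma and at least a 2-fold difference (0 of 57194, 0.0% higher and 0.0% lower). The lowest adjusted p was 0.394. At an unadjusted p under 0.05 limma gave 3839 probe sets (6.71%), and ordinary least squares, the other tool run, also gave 0 after adjustment. The same fit called 1239 probe sets higher (2.17%) and 3153 lower (5.51%) after drought in WT, against 914 higher (1.6%) and 478 lower (0.836%) in the OE line. That the lines had unequal numbers past a threshold is not a test of their difference. Across probe sets the WT and OE changes, which share no array, correlated at r = 0.785 over 57194 probe sets, which are not independent replicates. For 2 groups of 2 arrays, as in the drought change of 1 line, an exact permutation test of a single gene could not go below p = 0.333. That limit is not the one of the difference between the lines, which uses 4 groups. The limma p-values rest on 4 residual degrees of freedom of each probe set plus 4.85 from the spread that limma shares across probe sets.

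**Figure D1:**
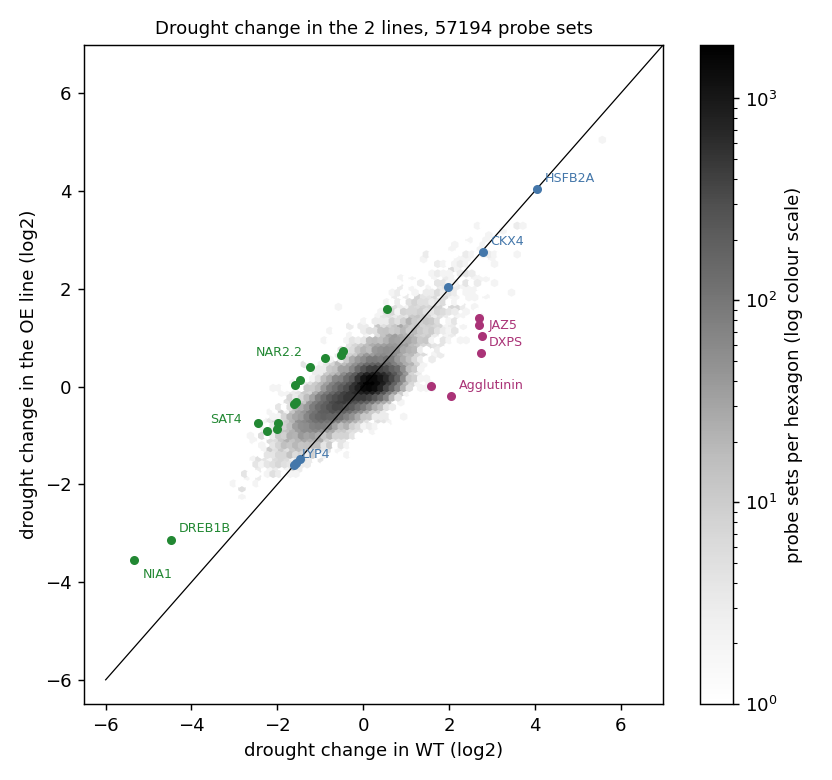
Drought change in WT (x axis) against the OE line (y axis), both log2, over 57194 probe sets in hexagons shaded by number. The line marks equal change. Genes with a smaller rise in the OE line (purple, JAZ5 and others) lie below it, genes with a smaller fall or larger rise (green, NIA1 and others) above it, and genes that moved alike (blue, HSFB2A and others) on it.

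By point estimate the drought falls were smaller in the OE line, while the rises were of like size, which is a description with no test. Members were taken by their mean change over both lines, which favours neither line in this balanced design if the groups have equal spread. Equal spread cannot be taken as given. Array weights, which are lower for arrays with more spread, were 0.738 in WT normal and 1.47 in OE normal. The part of unequal spread in the values that follow was not tested. Of 1627 probe sets that fell on average (2.84% of all, adjusted p under 0.05 and at least 2-fold), 1470 (90.4%) had a smaller change in the OE line, with medians of -1.51 in WT and -0.98 in the OE line and a median difference of 0.55. Of 1192 that rose on average (2.08%), 634 (53.2%) had a smaller change in the OE line, with medians of 1.5 and 1.46. Over all probe sets the difference was above 0 for 47.3%, with a median of -0.02. Over the 17905 genes with a probe set of their own, each taken at its brightest, it was above 0 for 71.3%, with a median of 0.18.

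Array means over the fallers were 7.38 and 7.78 in WT normal, 7.33 and 7.22 in OE normal, 5.97 and 5.97 in WT drought, and 6.33 and 6.10 in OE drought. The OE arrays thus lay below the WT arrays before drought and above them after it, without overlap, with the second WT normal array the highest of all. Over the fallers the OE line was lower than WT under normal conditions for 82.9% (median -0.28) and higher under drought for 82.1% (median 0.25). For the risers the arrays averaged 6.92 and 6.86 in WT normal, 6.93 and 7.16 in OE normal, 8.73 and 8.50 in WT drought, and 8.74 and 8.70 in OE drought. In the risers the lines were close in each condition. The fallers had a median difference above 0 at every level of signal. It was 0.71 at a mean log2 value of 5 or less and 0.35 above 9, beside -0.10 and 0.09 for all probe sets at these levels. Between 5 and 7 it was 0.58 beside -0.0. Between 7 and 9 it was 0.52 beside 0.20, the highest value for all probe sets.

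The size of this difference depended on the arrays. Without the second WT normal array 82.0% of the fallers had a smaller change in the OE line, with medians of -1.43 and -1.06, and without the first OE drought array 78.2% did. With a single array taken from each group, in all 16 ways, the share ran from 60.4% to 95.0%. The root markers and the hybridization controls were also at their extremes in the second WT normal array, and their part in the result was not tested.

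**Figure D2:**
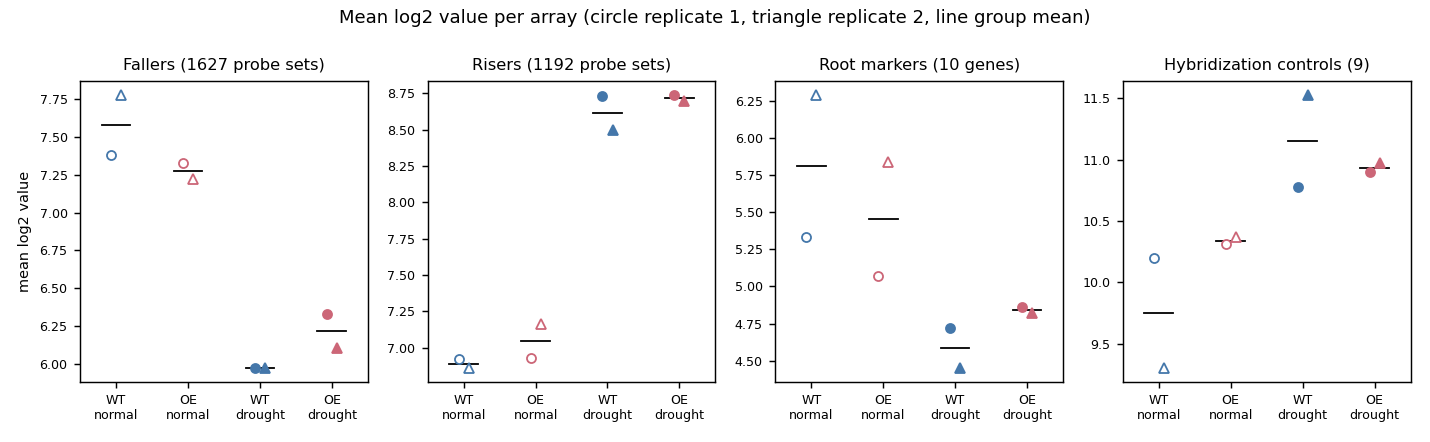
Mean log2 value of each array (circle, replicate 1; triangle, replicate 2; line, group mean) for the fallers, the risers, the 10 root markers and the 9 hybridization controls, each panel on its own log2 axis. The fallers are lowest in WT drought (5.97 on both arrays) and highest in the second WT normal array (7.78), while the risers end at 8.50 to 8.74 in both lines.

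Before adjustment, at p under 0.01 and at least a 2-fold difference, 258 probe sets (0.451%) lay higher in the OE line and 54 (0.0944%) lower. At p under 0.01 alone there were 614 (1.07%), beside 572 that the threshold itself gives on average. The genes described next came from this set and were named by their size, so their values are a description. Of the 258 higher ones, 156 fell in both lines by point estimate and fell less in the OE line, and 90 had changes of opposite sign. Of the 54 lower ones, 27 rose in both lines by point estimate and rose less in the OE line. The difference between the lines equals the line difference under drought minus that under normal conditions. Choosing probe sets for a large difference thus favours line differences of opposite sign, so the next counts are no separate result. For 243 of the 258, and 42 of the 54, the lines stood on opposite sides of each other before and after drought. Without the second WT normal array the counts were 121 and 69, and without the first they were 982 and 566.

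Of the 6 genes named for a lower change in the OE line, the differences ran from -2.26 for Agglutinin to -1.29 for JAMYB. JAZ5, a jasmonate repressor gene that is itself induced by jasmonate, measured 6.99 and 6.97 in WT normal, 8.29 and 8.32 in OE normal, 9.61 and 9.87 in WT drought, and 9.10 and 9.58 in OE drought. Its level before drought was higher in both OE arrays than in both WT arrays, while after drought both OE arrays lay slightly below both WT arrays. It rose by 2.76 in WT and by 1.04 in the OE line, a difference of -1.72 ± 0.27 (SE; unadjusted p = 0.000125, adjusted p = 0.716). JAMYB, a jasmonate-inducible MYB factor, measured 6.28 and 6.28 in WT normal, 7.63 and 7.15 in OE normal, 9.15 and 8.78 in WT drought, and 8.68 and 8.90 in OE drought. The lines were again apart before drought, but their arrays overlapped after it, and the difference was -1.29 ± 0.29 (adjusted p = 0.729).

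ADC2, an arginine decarboxylase of polyamine synthesis, measured 6.15 and 5.30 in WT normal against 7.42 and 7.65 in OE normal, and 8.78 and 8.06 in WT drought against 8.73 and 8.89 in OE drought. DXPS, named for 1-deoxy-D-xylulose 5-phosphate synthase of the plastid isoprenoid pathway, measured 7.11 and 6.75 against 8.91 and 8.29 before drought, and 9.12 and 10.23 against 9.03 and 9.54 after it. In both genes the OE normal arrays lay above the WT normal arrays and the drought arrays overlapped. The differences were -1.42 ± 0.43 for ADC2 and -2.06 ± 0.52 for DXPS, each with an adjusted p of 0.729.

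The other genes with a lower change in the OE line were Agglutinin, a lectin gene by its name, and HOS16 (also OSH6), a KNOX homeobox gene. Agglutinin measured 4.08 and 4.47 in WT normal, 7.03 and 5.87 in OE normal, 6.71 and 5.97 in WT drought, and 5.60 and 6.90 in OE drought. HOS16 measured 4.32 and 4.03, 5.81 and 4.94, 5.59 and 5.94, and 5.17 and 5.61 in the same order. Only WT normal stood apart from the other groups in Agglutinin and HOS16. Both rose in WT, by 2.06 and 1.59, while the OE changes were -0.20 and 0.02 and passed no threshold.

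Among the genes named for a higher change in the OE line were a pair of nitrate genes, NIA1 and NAR2.2. NIA1, a nitrate reductase gene that is induced by nitrate, measured 11.78 and 12.12 in WT normal, 10.16 and 10.94 in OE normal, 6.98 and 6.24 in WT drought, and 7.20 and 6.81 in OE drought. The WT normal arrays were the highest, and the drought arrays of the lines overlapped. NIA1 fell by 5.34 in WT and by 3.54 in the OE line (difference 1.79 ± 0.44, adjusted p = 0.729), and its other, dimmer probe set gave -0.49.

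NAR2.2, a partner protein of the high-affinity NRT2 nitrate transporters, measured 7.15 and 7.32 in WT normal, 5.92 and 6.18 in OE normal, 6.17 and 5.84 in WT drought, and 6.42 and 6.46 in OE drought. It fell in WT to the level that the OE line already had before drought, while its OE change of 0.40 did not pass the call. The difference was 1.63 ± 0.25 (adjusted p = 0.699), and it ran from 1.47 to 1.80 as each array was left out. The ammonium transporter AMT3-2 measured 6.25 and 6.33, 5.31 and 5.31, 5.99 and 5.55, and 5.76 and 6.14 in the same order of groups, a difference of 1.17 ± 0.28. AMT3-2 was again lower in both OE normal arrays than in both WT normal arrays. The potassium transporter HAK10, noted after its values were seen, had a difference of 1.14 ± 0.28 and was the only other member of its transport list past the unadjusted threshold.

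DREB1B, an AP2/ERF activator known from the cold response, measured 12.08 and 11.32 in WT normal, 10.53 and 10.38 in OE normal, 7.21 and 7.25 in WT drought, and 6.97 and 7.67 in OE drought. The lines were apart before drought and overlapped after it. DREB1B fell by 4.47 in WT and by 3.13 in the OE line (difference 1.34 ± 0.40), beside 1.37 ± 0.52 for its relative DREB1A. Other members of the DREB1 group did not share this, with -1.06 ± 0.40 for DREB1C (changes of 1.09 in WT and 0.03 in the OE line), 0.04 ± 0.25 for DREB1E and 0.23 ± 0.36 for DREB1G.

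CIPK5, a kinase activated by calcineurin B-like calcium sensors, measured 6.95 and 7.91 in WT normal, 6.33 and 6.44 in OE normal, 5.04 and 5.31 in WT drought, and 5.34 and 5.63 in OE drought. It fell by 2.25 in WT, and its OE change of -0.90 did not pass the call (difference 1.35 ± 0.40). The drought change of the calcium-dependent kinase CPK9 had the opposite sign, while its line difference of 1.03 ± 0.28 had the same sign. CPK9 measured 6.42 and 6.78 in WT normal, 6.07 and 5.88 in OE normal, 7.37 and 6.93 in WT drought, and 7.51 and 7.61 in OE drought. CPK9 rose by 1.58 in the OE line (adjusted p = 0.00563), while its WT change of 0.55 did not pass the call.

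In a further group the lines parted mainly under drought. WNK2, a kinase of the WNK family, measured 6.71 and 7.17 in WT normal, 6.57 and 6.73 in OE normal, 4.95 and 4.95 in WT drought, and 6.01 and 5.79 in OE drought. PP2C67, a type 2C protein phosphatase, measured 7.48 and 7.92, 7.50 and 7.14, 6.22 and 5.97, and 7.08 and 6.87 in the same order. Both fell in WT, by 1.99 and by 1.60, and the OE drought arrays lay above the WT drought arrays by 0.95 and 0.88 on average. The differences were 1.24 ± 0.27 and 1.26 ± 0.29, although a dimmer probe set of WNK2 gave -0.20. SAT4 measured 8.90 and 9.0 in WT normal, 8.02 and 8.68 in OE normal, 6.96 and 6.02 in WT drought, and 7.61 and 7.60 in OE drought. SAT4 fell by 2.46 in WT, with both OE drought arrays above both WT drought arrays.

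EIL1B, an EIN3-like factor of ethylene signalling, measured 8.31 and 8.43 in WT normal, 7.38 and 8.03 in OE normal, 6.14 and 6.59 in WT drought, and 6.79 and 6.90 in OE drought. It thus began lower and ended higher in the OE line, with a fall of 2.00 in WT and a difference of 1.13 ± 0.33. CRK6, a cysteine-rich receptor-like kinase, had a difference of 1.20 ± 0.29, with changes of -0.47 in WT and 0.73 in the OE line that passed no call. SWEET2B, a sugar transporter gene, measured 5.42 and 5.69 in WT normal, 4.55 and 4.54 in OE normal, 5.05 and 4.28 in WT drought, and 5.25 and 5.0 in OE drought. Its difference of 1.47 ± 0.34 came with 0.98 from a second, brighter probe set.

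Where a named gene had several probe sets, these often differed in the size of the value. In NIA1 and WNK2, given above, and in GBSS-I they also differed in its sign. GBSS-I (waxy), the granule-bound starch synthase of amylose synthesis, had a difference of 1.62 ± 0.27 in a probe set open to cross-hybridization, and the other 5 probe sets of its gene ran from -0.05 to 0.65. BURP2, of the BURP-domain family, had 1.60 ± 0.49 in 1 probe set and 0.31 in the other. The 4 probe sets of AO-4 all lay above 0, from 0.54 to 1.37, and the AO-4 probe set named by size gave 1.25 ± 0.27.

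**Figure D3:**
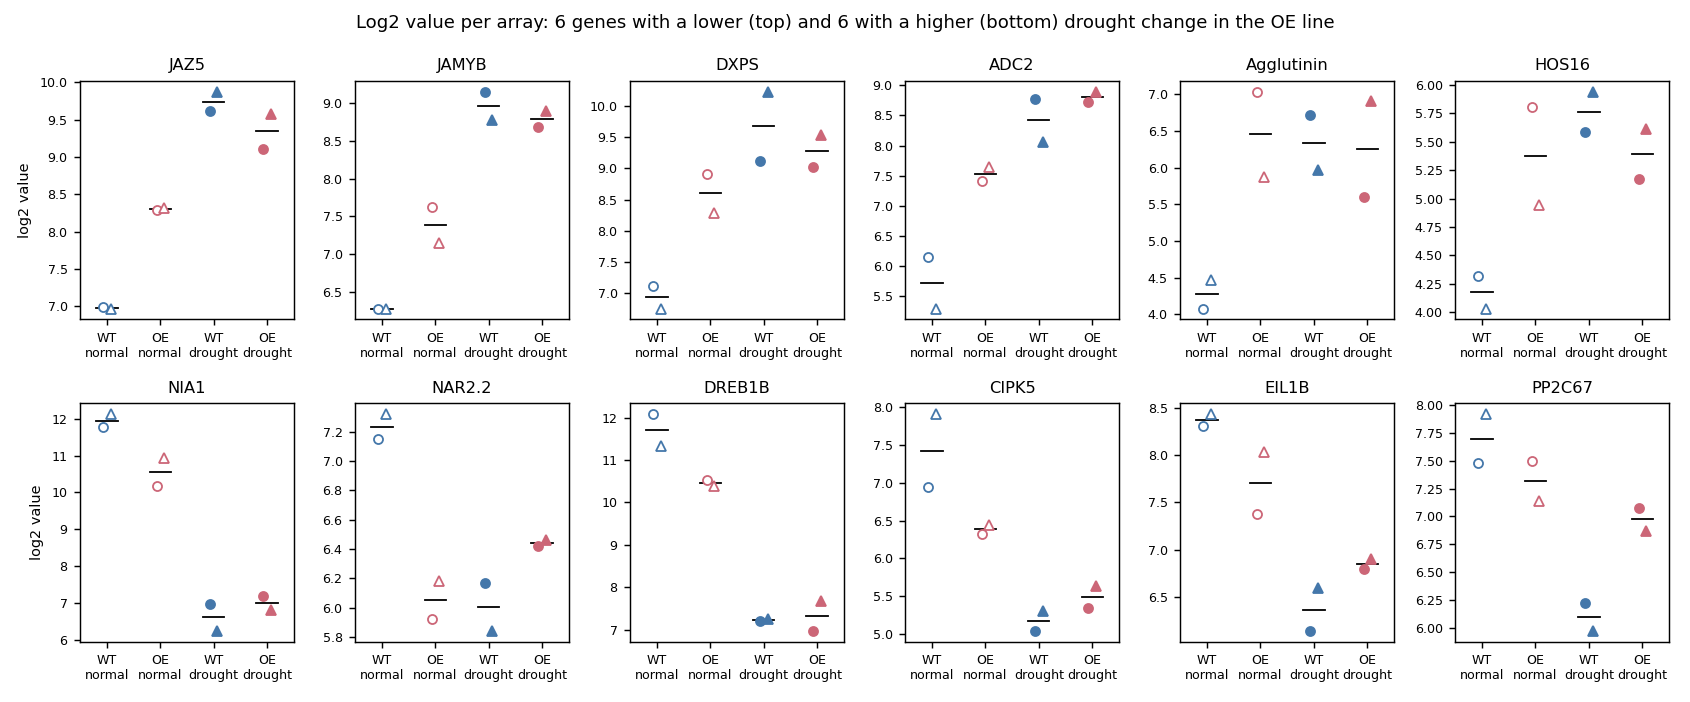
Log2 value on each array (circle, replicate 1; triangle, replicate 2; line, group mean) of 6 genes with a lower and 6 with a higher drought change in the OE line, each panel on its own axis. In JAZ5 the OE normal arrays (8.29 and 8.32) lie above the WT normal arrays (6.99 and 6.97), and in NAR2.2 they lie below (5.92 and 6.18 against 7.15 and 7.32).

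The smallest p-values fell on probe sets without a gene symbol, which were singled out after their values were seen. Only those with a locus name, taken from a paper on another gene, are described, so the choice was not by p-value alone. Between them in unadjusted limma p (2.17e-05 to 3.45e-05) lay probe sets without such a name. Their differences were 2.26, 2.2, 1.92 and -1.88, each with an adjusted p of 0.394. LOC_Os01g49750, annotated only as an expressed protein, measured 2.96 and 2.96 in WT normal and 3.17 and 3.08 in WT drought, against 3.88 and 3.90 in OE normal and 5.77 and 5.94 in OE drought. Its WT arrays were all low, and the OE arrays were higher in each condition. It rose by 1.97 in the OE line beside a WT change of 0.17, a difference of 1.80 ± 0.20 (adjusted p = 0.394), and the lines differed by 2.73 ± 0.14 under drought (adjusted p = 0.000266). LOC_Os06g38340, annotated as a receptor-like kinase precursor, measured 8.19 and 7.56 in WT normal, 3.56 and 4.76 in OE normal, 3.83 and 3.28 in WT drought, and 3.92 and 3.65 in OE drought. WT normal was the only high group. It fell by 4.32 in WT, its OE change was -0.37, and the difference was 3.94 ± 0.54 (adjusted p = 0.444), the largest of the 258.

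Genes with nearly equal drought changes in the lines were found among the 50 largest mean rises and falls. HSFB2A, a class B heat stress factor, measured 6.51 and 7.28 in WT normal, 5.63 and 7.01 in OE normal, 11.20 and 10.70 in WT drought, and 10.90 and 9.81 in OE drought. It rose by 4.06 in WT and 4.04 in the OE line. CKX4, a cytokinin oxidase that breaks down cytokinins, rose by 2.80 and 2.75, and the small heat shock protein gene hsp17.9 by 1.99 and 2.04. Among the fallers, the changes in WT and the OE line were -1.60 and -1.61 for LYP4, a LysM receptor protein, -1.46 and -1.48 for the growth-regulating factor GRF1, and -1.57 and -1.56 for the vacuolar iron transporter VIT1.2. The VIT1.2 change passed the call in neither line (adjusted p = 0.113 in WT and 0.251 in the OE line), and the GRF1 change did not pass in the OE line (adjusted p = 0.0733). Standard errors of these 6 differences ran from 0.40 to 0.90, so they do not show that the lines responded equally, and their sign turned when single arrays were left out.

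The jasmonate synthesis and TIFY genes had the lowest median difference of the 34 lists, next to NAC factors (8 genes, -0.19) and WRKY factors (6 genes, -0.16). Of 40 jasmonate genes, 30 had a lower drought change in the OE line, with medians of 0.65 in WT, 0.26 in the OE line and -0.21 for the difference, beside 0.18 for all genes. Drought raised 13 of the 40 in WT (3.85% of all genes) and 2 in the OE line (3.37% of all genes). None of the 40 differed between the lines after adjustment, and 3 had an unadjusted p under 0.05, namely JAZ5, JAZ3 and JAR1, all lower.

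By role, 12 of 13 JAZ repressor genes had a lower change in the OE line (median difference -0.52), and so did all 6 lipoxygenase genes (median -0.85). Over all genes, 5138 of 17905 had a lower change. The OE normal replicates were far apart in LOX2.1 (5.89 and 8.32, difference -1.95 ± 1.03), LOX3 (5.07 and 6.78) and LOX9 (5.26 and 6.76). In LOX2.1, LOX3 and LOX9 the first OE normal array lay below both WT normal arrays. That was not so in LOX1.1, LOX2 and LOX5. JAZ3 measured 8.43 and 8.63 in WT normal, 9.60 and 9.36 in OE normal, 9.19 and 9.21 in WT drought, and 9.24 and 9.11 in OE drought. The OE arrays lay above the WT arrays before drought and overlapped with them after it, and the JAZ3 difference was -0.98 ± 0.22. JAR1, whose enzyme makes the active jasmonoyl-isoleucine, measured 7.66 and 7.86, 8.52 and 8.25, 9.05 and 8.72, and 8.76 and 8.99 in the same order, a difference of -0.64 ± 0.26.

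AOS1, an allene oxide synthase gene, measured 9.81 and 9.14 in WT normal, 10.24 and 9.98 in OE normal, 10.63 and 11.10 in WT drought, and 10.68 and 10.84 in OE drought. AOS1 rose by 1.39 in WT, and its OE change of 0.65 did not pass the call. Of the 5 allene oxide synthase and cyclase genes, 3 had a lower change in the OE line (median difference -0.15). The other members, AOS2 (0.36 ± 0.30) and AOS4 (0.19 ± 1.08), had a higher one. The 3 COI receptor genes lay on the other side, with differences of 0.12 to 0.32 and a median change of -0.68 in WT and -0.36 in the OE line. Among the 7 genes of oxophytodienoate reductases and relatives, grouped by name, 6 had a lower change in the OE line. Their median difference was -0.12, and some lay near no difference, such as OPR5 (-0.06 ± 0.57) and OPR12 (-0.05 ± 0.23). OPR4 had a higher change (0.69 ± 0.73).

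Under normal conditions the median OE level of the 40 genes was 0.24 above WT, and under drought it was 0.02 below. Over all genes these medians were -0.06 and 0.12. Of the 11 jasmonate genes that rose on average, 10 had the smaller rise in the OE line, beside 392 of 754 over all genes. The list median was -0.10 without the second WT normal array and -0.36 without the first, beside 0.09 and 0.26 for all genes. Array means over the 40 genes were 8.43 and 8.20 in WT normal, 8.53 and 8.73 in OE normal, 9.02 and 8.95 in WT drought, and 8.84 and 9.11 in OE drought. The second WT normal array was thus the lowest here, as it was the highest for the fallers.

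**Figure D4:**
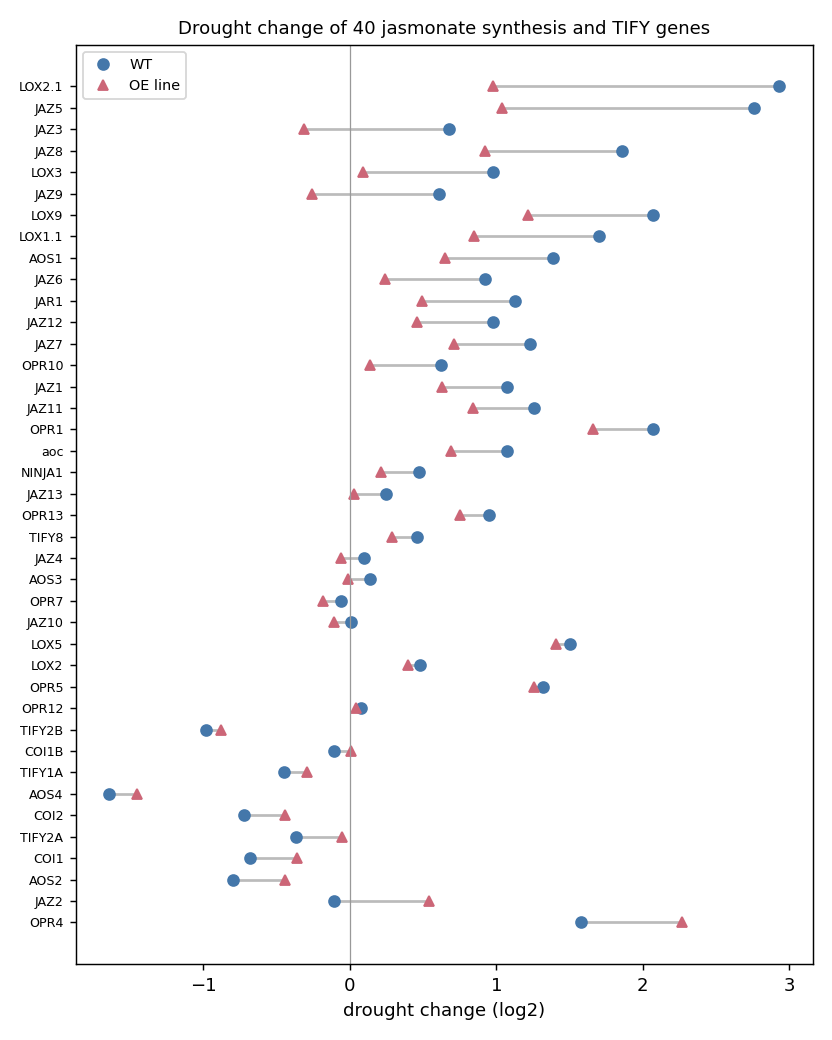
Drought change (log2, x axis) of each of 40 jasmonate synthesis and TIFY genes in WT (circle) and the OE line (triangle), ordered by the difference from the lowest at the top (LOX2.1, -1.95) to the highest (OPR4, 0.69). For 30 genes the OE value lies to the left of the WT value.

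Of 23 ABA genes, drought raised 8 in WT (3.85% of all genes) and 9 in the OE line (3.37% of all genes). The near-equal counts are thus also those of all genes and are not read as particular to the list. The median difference was 0.12, below that of all genes. Of the 8 that rose on average, 7 had a slightly smaller rise in the OE line, beside 392 of 754 over all genes. Among the 7 were the phosphatase PP2C68 (4.24 and 3.79) and the kinases SAPK6 (2.00 and 1.55) and sapk2 (1.47 and 1.04). None of the 7 had an unadjusted p under 0.05. SAPK1, the 1 gene of the list with an unadjusted p under 0.05, had the larger change in the OE line (0.50 in WT and 1.17, difference 0.67 ± 0.28). The bZIP factor ABF2 rose by 2.29 in WT and by 1.82 in the OE line. Of 8 LEA and dehydrin genes 3 were raised in WT and 2 in the OE line, with a median difference of 0.24. Dhn1, a dehydrin, measured 11.24 and 11.37 in WT normal, 11.02 and 11.54 in OE normal, 13.31 and 12.85 in WT drought, and 13.50 and 13.36 in OE drought, so that the lines lay close together throughout.

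Drought raised 8 of 20 heat stress factors in each line, and 12 of 32 chaperones in WT and 11 in the OE line, again beside 3.85% and 3.37% of all genes. Their median differences were -0.01 and 0.08. HSFA2A, the most strongly induced factor, rose by 6.45 in WT and by 5.32 in the OE line (difference -1.13 ± 0.67). It measured 10.79 and 11.59 in WT drought, and 11.05 and 9.33 in OE drought. HSFC2A, the 1 factor with an unadjusted p under 0.05, went the other way, with changes of 0.36 in WT and 2.02 in the OE line (difference 1.67 ± 0.59, adjusted p = 0.729). In the chaperones HSP17.4 rose by 5.42 and 5.47, and HSP18.1 by 5.56 and 5.0, while HSP22.3, the 1 chaperone with an unadjusted p under 0.05, had changes of -0.07 and 0.88 (difference 0.95 ± 0.34). Array means over the 32 chaperones were 8.76 and 9.06 in WT drought, and 9.06 and 8.32 in OE drought. The second OE drought array was thus the lowest of the drought arrays in HSFA2A and in the chaperone mean.

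Nothing particular is claimed for the other lists. The median difference was 0.22 for 96 nitrogen, phosphate and metal transport genes, 0.19 for 25 aquaporins, 0.18 for 77 calcium sensor kinases and calmodulins, 0.23 for 26 antioxidant enzymes and 0.12 for 60 auxin genes. More genes passed the call for a fall in WT than in the OE line, namely 11 and 1 transport genes, 3 and 0 aquaporins, 10 and 1 calcium genes and 8 and 2 auxin genes. Over all genes, 11.4% fell in WT and 1.85% in the OE line.

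All 8 calcium genes that fell on average fell less in the OE line by point estimate, as did 993 of 1096 genes over the whole array. The CBL-interacting kinase CIPK25 measured 8.67 and 9.35 in WT normal, 8.12 and 7.98 in OE normal, 7.15 and 6.79 in WT drought, and 7.78 and 6.88 in OE drought, with a difference of 1.32 ± 0.44. The auxin response factor ARF22 measured 8.47 and 8.86, 8.59 and 8.46, 7.20 and 6.90, and 7.79 and 7.69 in the same order, so that its lines parted under drought. For ARF22 the changes were -1.62 and -0.78 (difference 0.84 ± 0.26). RR9, a type A response regulator induced by cytokinin, had changes of -1.71 in WT and -0.67 in the OE line (difference 1.04 ± 0.32).

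Several of the transport genes and aquaporins with large differences are known from roots, and these varied between replicates. The iron transporter gene IRT1 measured 4.92 and 6.56 in WT normal, 4.14 and 5.75 in OE normal, 3.74 and 3.20 in WT drought, and 3.98 and 4.0 in OE drought. Lsi2, a silicon efflux transporter, measured 6.76 and 7.86, 5.27 and 8.05, 4.10 and 4.72, and 4.35 and 5.27 in the same order. Replicates of 1 group differed by more than the lines did, and the differences were 1.31 ± 0.82 and 1.05 ± 1.09. The median difference of the 10 root markers was 0.59. Their part in the transport and aquaporin values was not tested.

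Of 40 histone and cell division genes, 13 passed the call for a fall in WT (11.4% of all genes) and 2 in the OE line (1.85% of all genes), so that the unequal counts are also those of the whole array. The median changes were -0.75 and -0.60 and the median difference was 0.10, below that of all genes. Of 13 that fell on average, 9 fell less in the OE line by point estimate, beside 993 of 1096 over all genes. The D-type cyclin gene CYCD3-1 had changes of -2.04 and -1.82, and PCNA, the DNA polymerase clamp, of -1.22 and -1.23. H2B.5, a histone gene, had the widest gap of the 13 (-1.57 and -0.77, difference 0.80 ± 0.40). Photosynthesis and Rubisco genes (17) had medians of -0.47 and -0.37, and chlorophyll genes (14) of -0.41 and -0.36, with median differences of 0.02 and -0.03. Both lay below the value of all genes.

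**Figure D5:**
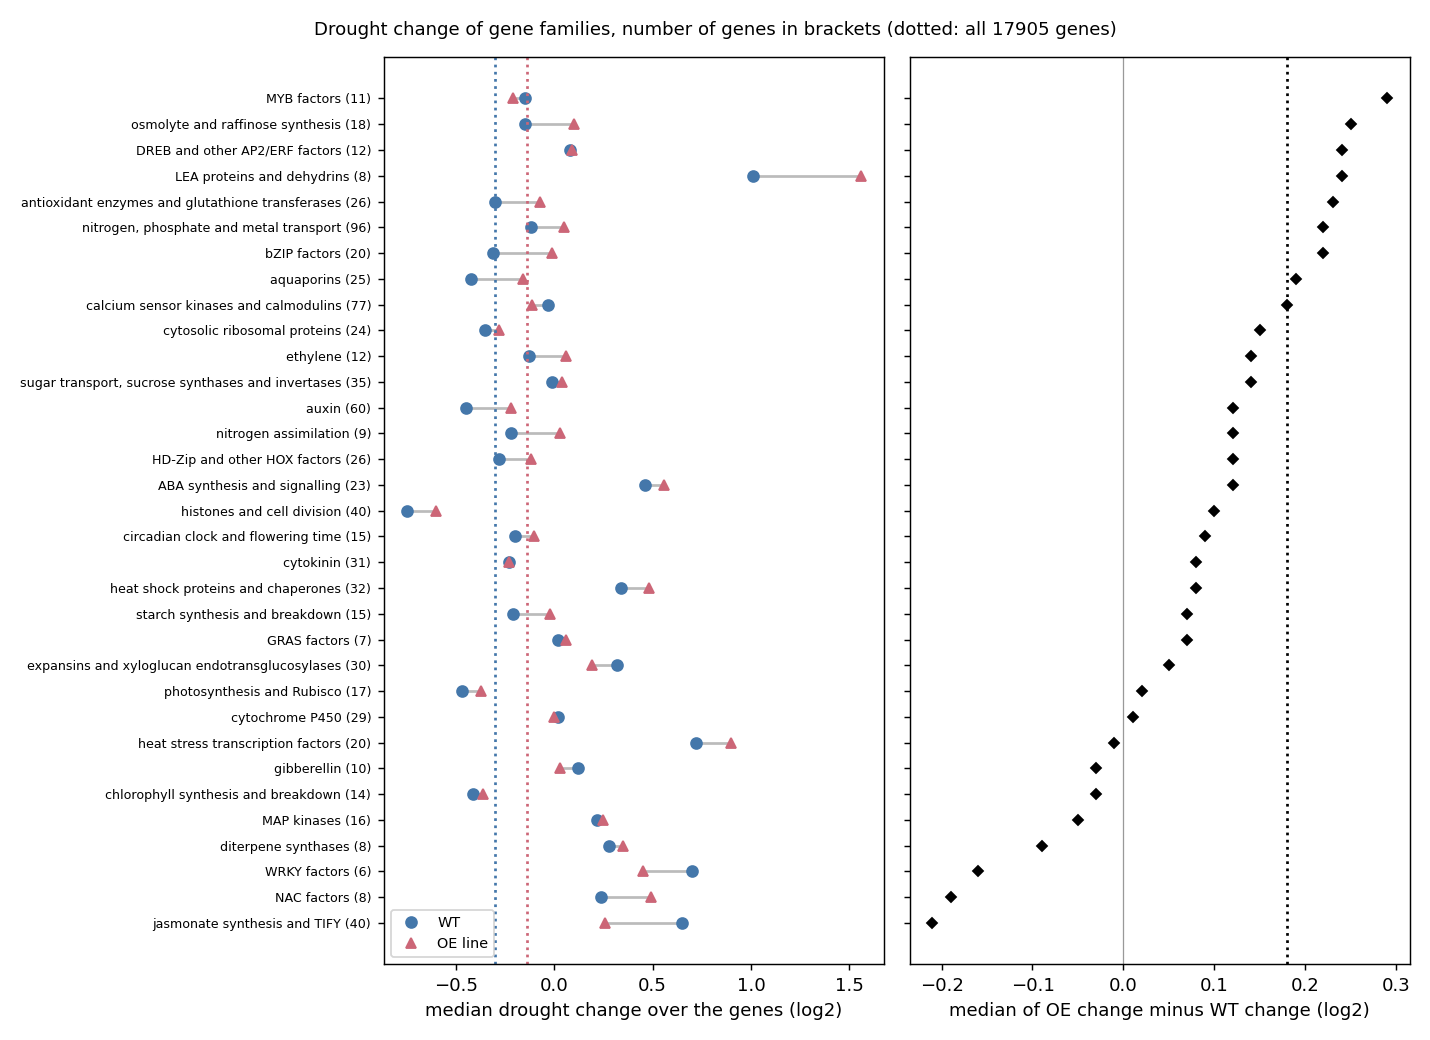
Left, median drought change (log2) of the lists with 6 or more genes in WT (circle) and the OE line (triangle). Right, the median of the OE change minus the WT change, with dotted lines for all 17905 genes (0.18 on the right). The jasmonate list is lowest at -0.21 and the MYB factors highest at 0.29.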

How the data were processed

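The authors deposited log2 expression values per probe set of an Affymetrix rice array, which the submitters' processing notes tie to RMA and Partek 6.5, and whose RMA settings the sources do not give. Array medians lay between 4.80 and 4.90, and no further normalization was applied. Of 57381 probe sets, 187 array controls were left out. limma 3.58.1 in R 4.3.3 fitted 4 group means to 8 arrays, on 4 residual degrees of freedom plus 4.85 from the prior, and p-values were adjusted by Benjamini-Hochberg across all 57194. The number of arrays limits the precision. On simulated data for the difference between the lines over 57194 probe sets, 24 of 100 differences of 1.5 and 92 of 100 of 3 on the log2 scale were called, and 6 of 122 calls were false. The simulated noise was independent and of equal spread on all arrays of a probe set. The real arrays were not alike in spread, so these shares need not hold for them.

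Names came from the platform table and RefSeq synonyms (assembly ASM3414082v1, names only), which gave 1 gene to 22436 probe sets, several to 95 and none to 34663. Only 2452 of 17905 genes had a symbol, so the 34 lists need not hold whole families. The 2 locus names came from supplementary tables of a paper on another gene, OsHMGB707. Those tables list genes changed in OsHMGB707 overexpression or knockdown plants against wild type, so both loci are also listed there. Only probe sets listed there could be given a locus name, which limited the choice of loci described. In lists, the brightest probe set stood for its gene. Named genes were the 12 with a symbol and the largest difference in each direction at p under 0.01 and 2-fold (6 existed that were lower), up to 2 per list and direction, and the 3 risers and 3 fallers nearest to no difference among the 50 largest mean changes. Members and lists were chosen with earlier results of these data known. Alternatives were other normalizations, filters, spread estimates, thresholds, array weights, the replicate number as a block and each array left out. Lists and plots used Python 3.11.15 with pandas 2.3.3, numpy 2.4.6 and matplotlib 3.10.9.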

Additional observations from a re-analysis of the deposited data

Results flagged for a closer look

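The hybridization controls, which lie outside the genes compared, were higher on the drought arrays than on the normal arrays by 1.00 on the log2 scale as a mean over both lines, by 1.41 in WT and by 0.59 in the OE line. They are added in fixed amounts, and their part in the differences between the lines was not tested.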

How the results depend on the processing

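No alternative gave a call in either direction, including adjusted p under 0.10 with no fold minimum. The 258 higher and 54 lower differences before adjustment became 167 and 32 with a filter at a mean log2 value of 5, which tests 27376 probe sets, and 56 and 8 with ordinary least squares. The cause of the second change was not tested. As each array was left out they ran from 121 to 982 and from 52 to 566. The share of fallers with a smaller change in the OE line ran from 78.2% to 95.6%, the share of risers from 42.9% to 62.8%, and the jasmonate median from -0.36 to -0.10. Quantile normalization gave 221 and 73 differences and 87.9% of fallers, and median centring 332 and 37 and 93.0%. The median over all genes was 0.08 with quantile normalization and 0.24 with centring.

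The labels number replicates alike in each group but pair no samples, and replicate differences correlated between groups at -0.166 to 0.1. With the replicate number as a block, 0 calls, 254 higher and 56 lower differences, 90.4% of fallers and a jasmonate median of -0.21 were found. With fewer than 3 pairs nothing more can be read from the pairing.

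Among the named genes the sign turned only for the 6 that moved alike. The differences became 0.05 for HSFB2A, 0.02 for CKX4, 0.06 for LYP4 and 0.04 for GRF1 with centring, and -0.06 for hsp17.9 and -0.14 for VIT1.2 with quantile normalization. As each array was left out they ran from -0.71 to 0.67 for HSFB2A, -0.56 to 0.65 for hsp17.9, -0.60 to 0.51 for CKX4, -0.68 to 0.69 for VIT1.2, -0.37 to 0.35 for LYP4 and -0.54 to 0.49 for GRF1.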
